A study of Mus musculus with 12 samples.

Results

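The genes of the IL-12 cytokine family code for the subunits from which the interleukins IL-12, IL-23, IL-27 and IL-35 are assembled. The members were listed by gene symbol as Il12a, Il12b, Il23a, Ebi3 and Il27, and a probe set counted as a member's where the annotation gave it that symbol alone. Of the 5 listed members 4 were measured, by 5 probe sets, among 12393 genes in all. Il27 was not analysed here. Il12b had 2 probe sets, and the one with the higher mean over the 12 arrays served as its main probe set. Expression was measured on Affymetrix arrays in mouse bone marrow-derived macrophages, which were grown from marrow in medium conditioned by L cells, which secrete the macrophage growth factor. All cells came from the strain labelled 129-SvEv-Tac and all carried a deletion of Il10, in both genotypes and under every stimulus. The p50-/-IL10-/- cells also lacked p50, an NF-kB subunit made from the p105 precursor of the same gene, and the IL10-/- cells carried no other deletion per the labels. Loss of p50 and loss of p105 cannot be told apart in this design. Cells of each genotype were left without stimulus, treated with 1 ng/ml LPS, a cell wall component of Gram-negative bacteria, or treated with 1 ng/ml LPS together with IL-10 at 0.3 ng/ml. The RNA was harvested at 4 h. The 6 groups held 2 arrays each. The labels call these biological replicates without saying whether they came from separate animals, so a p-value here rests on the variation between these arrays only.

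IL-12 family cytokines are heterodimers of an alpha chain and a receptor-like beta chain, and the chains are shared between cytokines. The beta chain p40, coded by Il12b, joins p35 (Il12a) to form IL-12, which drives interferon-gamma production by T and NK cells, or p19 (Il23a) to form IL-23, which sustains T cells that make IL-17. The beta chain EBI3 joins the Il27 product to form IL-27, or p35 to form IL-35. In macrophages LPS induces these genes to different degrees, NF-kB and interferon regulatory factors act on their promoters, and IL-10 is a known repressor of Il12b.

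The stretches just before the gene starts are shown because factors of the kinds compared below can act there. Whether any of them acted in these stretches was not tested. RefSeq promoter sequences (build GRCm38.p6) were found for 3 of the 5 members, with 2 starts for Il12a. The last 250 bases before each start are printed 5′ to 3′, and the capitals mark matches to the motifs searched.
Il12b, chr11:44399813-44400062, + strand: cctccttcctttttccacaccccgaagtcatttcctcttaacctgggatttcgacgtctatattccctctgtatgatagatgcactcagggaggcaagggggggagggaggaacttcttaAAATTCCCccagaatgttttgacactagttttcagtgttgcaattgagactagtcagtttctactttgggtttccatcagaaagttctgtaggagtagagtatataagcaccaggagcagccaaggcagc
Ebi3, chr17:55952373-55952622, + strand: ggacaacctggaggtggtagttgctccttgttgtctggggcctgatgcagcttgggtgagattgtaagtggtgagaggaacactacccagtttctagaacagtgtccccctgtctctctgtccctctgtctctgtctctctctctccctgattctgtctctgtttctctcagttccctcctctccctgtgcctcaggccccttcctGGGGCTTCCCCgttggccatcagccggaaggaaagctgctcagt
Il12a start 1, chr3:68690394-68690643, + strand: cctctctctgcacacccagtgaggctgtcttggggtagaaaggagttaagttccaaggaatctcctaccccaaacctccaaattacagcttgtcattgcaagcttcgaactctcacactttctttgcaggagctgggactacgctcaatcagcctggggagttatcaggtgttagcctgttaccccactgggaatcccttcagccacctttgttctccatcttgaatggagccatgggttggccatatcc
Il12a start 2, chr3:68691174-68691423, + strand: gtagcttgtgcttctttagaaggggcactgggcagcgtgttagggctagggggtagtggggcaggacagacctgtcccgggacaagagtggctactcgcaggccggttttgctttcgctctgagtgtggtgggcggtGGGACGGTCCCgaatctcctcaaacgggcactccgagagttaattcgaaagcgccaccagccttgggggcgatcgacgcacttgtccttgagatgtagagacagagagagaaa
Both strands were searched for 7 motifs, with N standing for any base. They were kB (GGGNNNNNCC, held by 45.8% of 32851 RefSeq promoter stretches of the same length), a shorter kB element (GGGNNTTT, 13.3%), C/EBP (TTGCNNAA, 9.56%), AP-1 (TGANTCA, 6.75%), an interferon response element (GAAANNGAAA, 2.98%), an ETS with IRF element (GGAANNGAAA, 2.3%) and STAT (TTCNNNGAA, 7.02%). Il12b held 1 match to the shorter kB element, from 130 to 123 bases before its start. Ebi3 held a kB match from 44 to 35 bases before its start, which overlapped a further kB match from 43 to 34. The further start of Il12a, start 2, held overlapping kB matches from 113 to 104 and from 112 to 103 bases before it, and start 1 held none of the motifs. Each match is a run of letters and describes no binding, and the window may leave out sites that lie further away.

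Over all genes, the correlation between the arrays of a group was 0.992 to 0.997, and the array medians lay between 6.92 and 6.96 log2. The lower quartiles of the arrays reached 5.6 log2, and a level under 5.6 is called dim below, since changes between dim levels are compressed on these arrays. The 8 macrophage markers measured averaged 11.8 to 12.2 log2 on every array, and none of the 8 was dim in any group. Of all genes, 2.57% were called between the genotypes without stimulus, 12.4% with LPS and 18.0% with LPS plus IL-10. Between the genotypes 0 of the 8 macrophage markers were called in limma without stimulus, with 1 (Cd68, 0.25) at an unadjusted p under 0.05. With LPS 2 were higher in p50-/-IL10-/- cells, Mertk by 1.29 and Cd68 by 0.30, and 1 was lower, Adgre1 (-0.63). With LPS plus IL-10 Mertk was higher by 1.62, and Adgre1 (-0.57) and Itgam (-1.05) were lower. Of 7 neutrophil markers measured, 6 were lower in p50-/-IL10-/- cells without stimulus, 7 with LPS and 5 with LPS plus IL-10, and their array means were 8.24 to 8.43 in p50-/-IL10-/- cells and 8.89 to 9.12 in IL10-/- cells. Of 6 dendritic cell markers measured, Ccr7, Xcr1 and Zbtb46 were dim in all 6 groups. Itgax was higher in p50-/-IL10-/- cells by 2.54 log2 without stimulus, by 2.71 with LPS and by 2.88 with LPS plus IL-10. The dendritic markers averaged 6.46 to 6.71 on p50-/-IL10-/- arrays and 6.00 to 6.19 on IL10-/- arrays, but the median genotype difference of the 6 was 0.02 without stimulus, 0.03 with LPS and 0.18 with LPS plus IL-10. Of the 6, 1 was called higher without stimulus, 1 with LPS and 3 with LPS plus IL-10, Itgax each time. Of 5 stromal markers 1 was lower in p50-/-IL10-/- cells without stimulus, 2 with LPS and 1 with LPS plus IL-10, with median differences of -0.77, -0.97 and -0.43. Among them Dcn was lower under each stimulus (-1.68, -1.999 and -1.17). The part of these cell types in the genotype differences below was not tested, and fewer cells of a type cannot be told apart from less RNA per cell in these bulk samples.

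Il12b, which codes for the shared p40 chain, was the member with the widest range. In p50-/-IL10-/- cells its main probe set read 4.81 and 5.59 log2 without stimulus, 12.25 and 11.88 with LPS, and 8.72 and 8.88 with LPS plus IL-10. Its readings in IL10-/- cells were 4.86 and 4.66 without stimulus, 10.07 and 9.87 with LPS, and 5.51 and 5.39 with LPS plus IL-10. Both LPS arrays of either genotype lay above every other array of that genotype, and with IL-10 the p50-/-IL10-/- arrays stayed far above the unstimulated ones while the IL10-/- arrays came back to within 1 log2 of them. From the top, the group means ran from p50-/-IL10-/- with LPS (12.07 ± 0.26, SD, n = 2), through IL10-/- with LPS (9.97 ± 0.14) and p50-/-IL10-/- with LPS plus IL-10 (8.80 ± 0.12), to IL10-/- with LPS plus IL-10 (5.45 ± 0.09), p50-/-IL10-/- without stimulus (5.20 ± 0.56) and IL10-/- without stimulus (4.76 ± 0.15). The last 3 groups were dim, and neighbours among them overlapped.

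**Figure D1:**
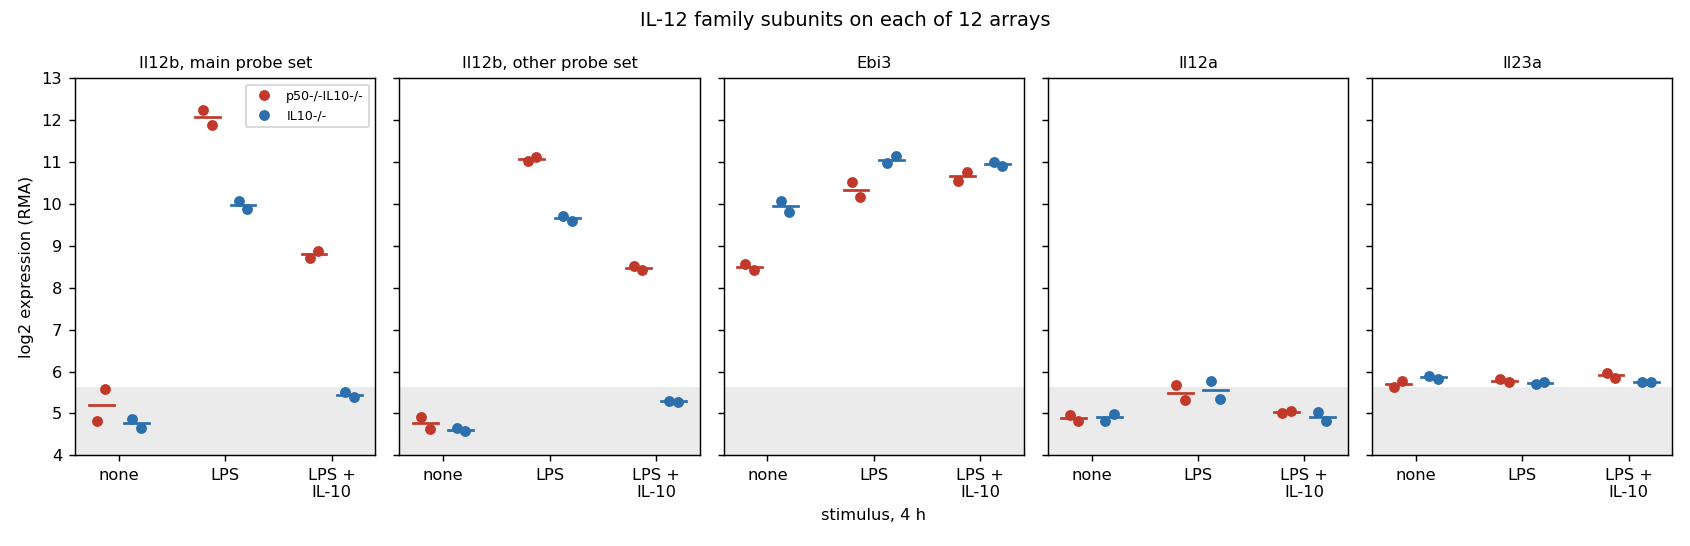
Levels of the 5 probe sets of the measured subunits on each of the 12 arrays, in log2 units, by stimulus and genotype. Each point is an array, each line a group mean of 2 arrays, and the grey band marks levels under 5.6 log2. Il12b spans 4.66 to 12.25 log2 on its main probe set, whereas Il23a stays between 5.63 and 5.97.

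LPS raised Il12b by 6.87 ± 0.21 log2 (SE, n = 2 arrays per group throughout) in p50-/-IL10-/- cells, or 117-fold (adjusted p = 1.74e-08), and by 5.21 ± 0.21, or 37.0-fold, in IL10-/- cells (adjusted p = 1.26e-07). By size this ranked 1 of all genes in p50-/-IL10-/- cells and 2 in IL10-/- cells. The unstimulated levels were dim, so the folds are uncertain. The LPS response was larger in p50-/-IL10-/- cells by 1.66 ± 0.30 log2, with a 95% interval of 0.98 to 2.33 and an adjusted p of 0.0323. That call lay near the threshold and did not hold in every fit without 1 array. It ended in 9 of the 12 fits that left out 1 array, with a difference of 1.26 to 2.05 and an adjusted p of 0.00933 to 0.138 over the 12. The arrays whose loss ended it were array 1 (1.55, adjusted p = 0.103) and array 2 (1.76, 0.0817) of unstimulated IL10-/- cells, array 1 of unstimulated p50-/-IL10-/- cells (1.26, 0.0517), array 2 of IL10-/- cells with LPS (1.56, 0.0921) and array 1 of p50-/-IL10-/- cells with LPS (1.47, 0.138). The other 4 were both arrays of IL10-/- cells with LPS plus IL-10 and both of p50-/-IL10-/- cells with LPS plus IL-10. These arrays are not part of this comparison, and the difference stayed at 1.66 without any 1 of them.

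Adding IL-10 to LPS lowered Il12b in both genotypes. It fell by 3.27 ± 0.21 log2 in p50-/-IL10-/- cells (9.64-fold, adjusted p = 2.73e-05) and by 4.52 ± 0.21 in IL10-/- cells (23.0-fold, adjusted p = 4.05e-06), which by size ranked 2 among all genes in p50-/-IL10-/- cells and 1 in IL10-/- cells. The unstimulated groups were dim, and so was IL10-/- with LPS plus IL-10, so the folds, ranks and shares given here are uncertain. Set against the LPS rise in the same cells, IL-10 took away 47.6% of the log2 rise in p50-/-IL10-/- cells and 86.8% in IL10-/- cells. A share of a log2 rise is not a share of the signal itself, which fell 9.64-fold and 23.0-fold in these cells. Cells given LPS with IL-10 still stood above unstimulated ones by 3.60 ± 0.21 log2 in p50-/-IL10-/- cells (12.1-fold, adjusted p = 1.02e-06) and by 0.69 ± 0.21 in IL10-/- cells (1.61-fold, adjusted p = 0.0472). The 0.69 call lies between 2 dim groups. It ended without array 1 (0.79, adjusted p = 0.0863) or array 2 (0.58, 0.234) of unstimulated IL10-/- cells, without array 1 (0.63, 0.207) or array 2 (0.75, 0.103) of IL10-/- cells with LPS plus IL-10, and without either array of IL10-/- cells with LPS (0.69, 0.0509) or of p50-/-IL10-/- cells with LPS plus IL-10 (0.69, 0.0655).

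**Figure D2:**
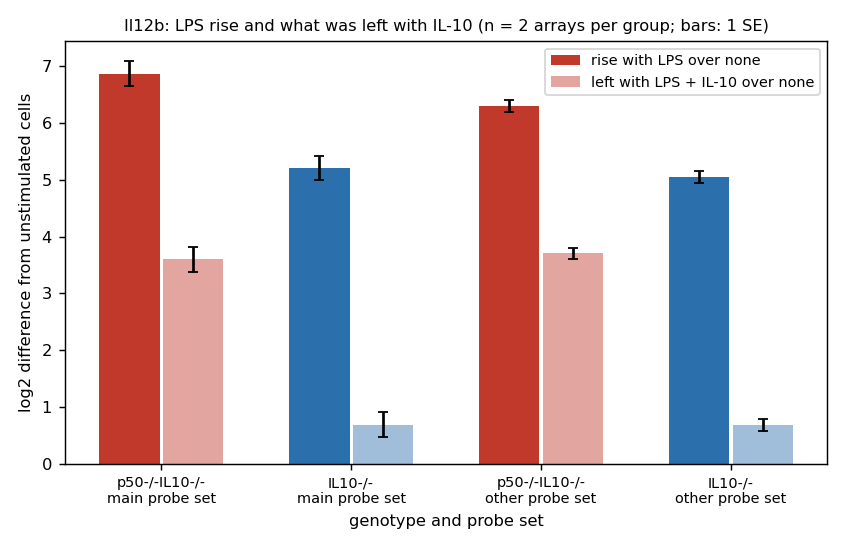
Il12b differences from unstimulated cells, in log2 units, for each genotype and probe set. Dark bars show LPS alone and pale bars LPS with IL-10, red for p50-/-IL10-/- cells and blue for IL10-/- cells, and black bars are 1 SE from a fit over all probe sets. On the main probe set the pale bar reaches 3.60 of 6.87 in p50-/-IL10-/- cells and 0.69 of 5.21 in IL10-/- cells.

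Between the genotypes, Il12b was higher in p50-/-IL10-/- cells by 2.10 ± 0.21 log2 with LPS (4.28-fold, adjusted p = 0.000197) and by 3.35 ± 0.21 with LPS plus IL-10 (10.2-fold, adjusted p = 1.37e-05). Without stimulus the arrays overlapped and the difference was 0.44 ± 0.21 (95% interval -0.03 to 0.92, adjusted p = 0.406). IL-10 lowered Il12b less in p50-/-IL10-/- cells on both probe sets, but whether this difference was called depended on the probe set. On the main one the IL-10 effect differed by 1.25 ± 0.30 log2, with a 95% interval of 0.58 to 1.93 and an unadjusted p of 0.00187, and it missed the threshold over all genes (adjusted p = 0.207). In the 12 fits without 1 array it ran from 1.07 to 1.44 and was not called in any (adjusted p 0.0712 to 0.478).

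The other Il12b probe set gave the same order of groups with a smaller spread. In p50-/-IL10-/- cells it read 4.93 and 4.62 log2 without stimulus, 11.04 and 11.11 with LPS, and 8.52 and 8.43 with LPS plus IL-10. The IL10-/- arrays read 4.64 and 4.58 without stimulus, 9.72 and 9.60 with LPS, and 5.30 and 5.28 with LPS plus IL-10. Both arrays with LPS plus IL-10 lay above both unstimulated arrays in each genotype. Over the 12 arrays the 2 probe sets correlated at 0.993, and their levels on an array differed by 0.07 to 1.22 log2. Tested among all probe sets, the IL-10 effect on this one differed between the genotypes by 1.78 ± 0.14 log2 (adjusted p = 0.00221), and the LPS response by 1.25 ± 0.14 (adjusted p = 0.00544). In the same fit it was higher in p50-/-IL10-/- cells by 1.41 ± 0.10 with LPS (adjusted p = 5.44e-05). With LPS plus IL-10 it was higher there by 3.19 ± 0.10 (adjusted p = 2.35e-07). In IL10-/- cells, LPS plus IL-10 over no stimulus gave 0.68 ± 0.10 (adjusted p = 0.00123), between 2 dim groups. IL-10 took away 41.2% of the log2 LPS rise in p50-/-IL10-/- cells and 86.6% in IL10-/- cells here. With the mean of both probe sets the difference in the Il12b IL-10 effect was 1.51 ± 0.14 (adjusted p = 0.00142).

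Ebi3, the beta chain of IL-27 and IL-35, was well above the dim level in all groups, and it was lower in p50-/-IL10-/- cells without stimulus and with LPS. It read 8.57 and 8.42 log2 in unstimulated p50-/-IL10-/- cells, 10.53 and 10.16 with LPS, and 10.54 and 10.77 with LPS plus IL-10. The IL10-/- readings were 10.07 and 9.82 without stimulus, 10.97 and 11.14 with LPS, and 10.998 and 10.91 with LPS plus IL-10. The genotypes did not overlap under any stimulus, and the p50-/-IL10-/- arrays were the lower ones each time. The group means ran from IL10-/- with LPS (11.06 ± 0.12) and IL10-/- with LPS plus IL-10 (10.95 ± 0.06), which overlapped, through p50-/-IL10-/- with LPS plus IL-10 (10.66 ± 0.16) and with LPS (10.35 ± 0.26), to IL10-/- (9.94 ± 0.18) and p50-/-IL10-/- (8.49 ± 0.11) without stimulus.

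Ebi3 was lower in p50-/-IL10-/- cells by 1.45 ± 0.14 log2 without stimulus (2.73-fold, adjusted p = 0.000405) and by 0.71 ± 0.14 with LPS (1.63-fold, adjusted p = 0.00812). With LPS plus IL-10 the difference was -0.29 ± 0.14 (95% interval -0.60 to 0.01, adjusted p = 0.169). The call with LPS ended without array 2 of IL10-/- cells with LPS (-0.62, adjusted p = 0.0569) and without array 2 of p50-/-IL10-/- cells with LPS (-0.53, adjusted p = 0.0579). LPS raised Ebi3 by 1.85 ± 0.14 log2 in p50-/-IL10-/- cells (3.62-fold, adjusted p = 4.14e-06) and by 1.11 ± 0.14 in IL10-/- cells (2.16-fold, adjusted p = 0.000202). The difference between these responses, 0.74 ± 0.20 (95% interval 0.31 to 1.18), was not called over all genes (adjusted p = 0.137).

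IL-10 did not lower Ebi3 detectably in either genotype. Against LPS alone, LPS with IL-10 gave a difference of 0.31 ± 0.14 log2 in p50-/-IL10-/- cells (95% interval 0.00 to 0.62, adjusted p = 0.208), with both LPS plus IL-10 arrays above both LPS arrays. In IL10-/- cells it was -0.10 ± 0.14 (95% interval -0.41 to 0.20, adjusted p = 0.816) and the arrays overlapped. Over unstimulated cells, Ebi3 with LPS plus IL-10 was higher by 2.17 ± 0.14 in p50-/-IL10-/- cells (4.48-fold, adjusted p = 1.62e-06) and by 1.01 ± 0.14 in IL10-/- cells (2.01-fold, adjusted p = 0.000515). The genotype difference in the IL-10 effect was 0.41 ± 0.20 (95% interval -0.02 to 0.85, adjusted p = 0.444).

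Il12a, the p35 chain of IL-12 and IL-35, was dim on 10 of the 12 arrays. In p50-/-IL10-/- cells it read 4.97 and 4.82 log2 without stimulus, 5.68 and 5.31 with LPS, and 5.02 and 5.06 with LPS plus IL-10. In IL10-/- cells it read 4.83 and 5.00 without stimulus, 5.76 and 5.35 with LPS, and 5.03 and 4.81 with LPS plus IL-10. The LPS arrays were the highest in both genotypes, and only array 1 of each LPS group was above 5.6. LPS raised Il12a by 0.60 ± 0.15 log2 in p50-/-IL10-/- cells (adjusted p = 0.0118) and by 0.64 ± 0.15 in IL10-/- cells (adjusted p = 0.0109). The p50-/-IL10-/- call ended without array 2 of the unstimulated cells (0.53, adjusted p = 0.0900) or array 1 of the LPS cells (0.42, 0.116). The IL10-/- call ended without array 1 of the unstimulated cells (0.56, 0.0753) or array 1 of the LPS cells (0.44, 0.0959).

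IL-10 with LPS, against LPS alone, gave an Il12a difference of -0.46 ± 0.15 log2 in p50-/-IL10-/- cells (95% interval -0.80 to -0.11, adjusted p = 0.111), where the arrays did not overlap. In IL10-/- cells Il12a fell by 0.64 ± 0.15 (adjusted p = 0.0362). This call ended in 7 of the 12 fits without 1 array. These were array 1 of IL10-/- cells with LPS (-0.43, adjusted p = 0.243), array 1 (-0.75, 0.0679) and array 2 (-0.52, 0.234) of IL10-/- cells with LPS plus IL-10, both arrays of unstimulated p50-/-IL10-/- cells (-0.64, 0.0560) and both of p50-/-IL10-/- cells with LPS plus IL-10 (-0.64, 0.0591). Between the genotypes Il12a differed by -0.02 ± 0.15 without stimulus, -0.06 ± 0.15 with LPS and 0.12 ± 0.15 with LPS plus IL-10, with overlapping arrays each time. With LPS plus IL-10 the 95% interval was -0.22 to 0.46. LPS plus IL-10 over no stimulus gave 0.15 ± 0.15 in p50-/-IL10-/- cells (adjusted p = 0.468) and 0.01 ± 0.15 in IL10-/- cells (adjusted p = 0.984). The Il12a LPS response differed between the genotypes by -0.04 ± 0.22 (95% interval -0.53 to 0.44) and the IL-10 effect by 0.18 ± 0.22 (95% interval -0.31 to 0.66), and neither was called.

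Il23a, the p19 chain of IL-23, moved least. Its level lay between 5.63 and 5.97 log2 on all 12 arrays, just above the dim level, and its 6 group means spanned 0.21 log2 against a pooled SD of 0.06 within groups. So near the dim level, a flat reading does not tell an unchanged gene from a signal too weak to follow. It read 5.63 and 5.77 log2 in unstimulated p50-/-IL10-/- cells, 5.81 and 5.75 with LPS, and 5.97 and 5.84 with LPS plus IL-10. In IL10-/- cells it read 5.90 and 5.82 without stimulus, 5.71 and 5.76 with LPS, and 5.75 and 5.76 with LPS plus IL-10. The arrays of the 3 stimuli lay close together in both genotypes. Both unstimulated IL10-/- arrays lay above the other IL10-/- arrays, and both p50-/-IL10-/- arrays with LPS plus IL-10 above the other p50-/-IL10-/- ones. The remaining stimuli overlapped within each genotype. The LPS difference was 0.08 ± 0.08 in p50-/-IL10-/- cells (95% interval -0.10 to 0.26) and -0.13 ± 0.08 in IL10-/- cells (95% interval -0.31 to 0.05). The largest difference, LPS with IL-10 over no stimulus in p50-/-IL10-/- cells, was 0.21 ± 0.08 (adjusted p = 0.0602). It was called once each array was centred on its median (0.28, adjusted p = 0.0166) or the probe sets of each gene were averaged (0.21, adjusted p = 0.0478). LPS plus IL-10 against LPS alone gave 0.13 ± 0.08 in p50-/-IL10-/- cells and 0.02 ± 0.08 in IL10-/- cells. Between the genotypes Il23a differed by -0.16 ± 0.08 without stimulus, 0.05 ± 0.08 with LPS and 0.15 ± 0.08 with LPS plus IL-10, and none of these was called (adjusted p 0.421, 0.796 and 0.212).

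**Figure D3:**
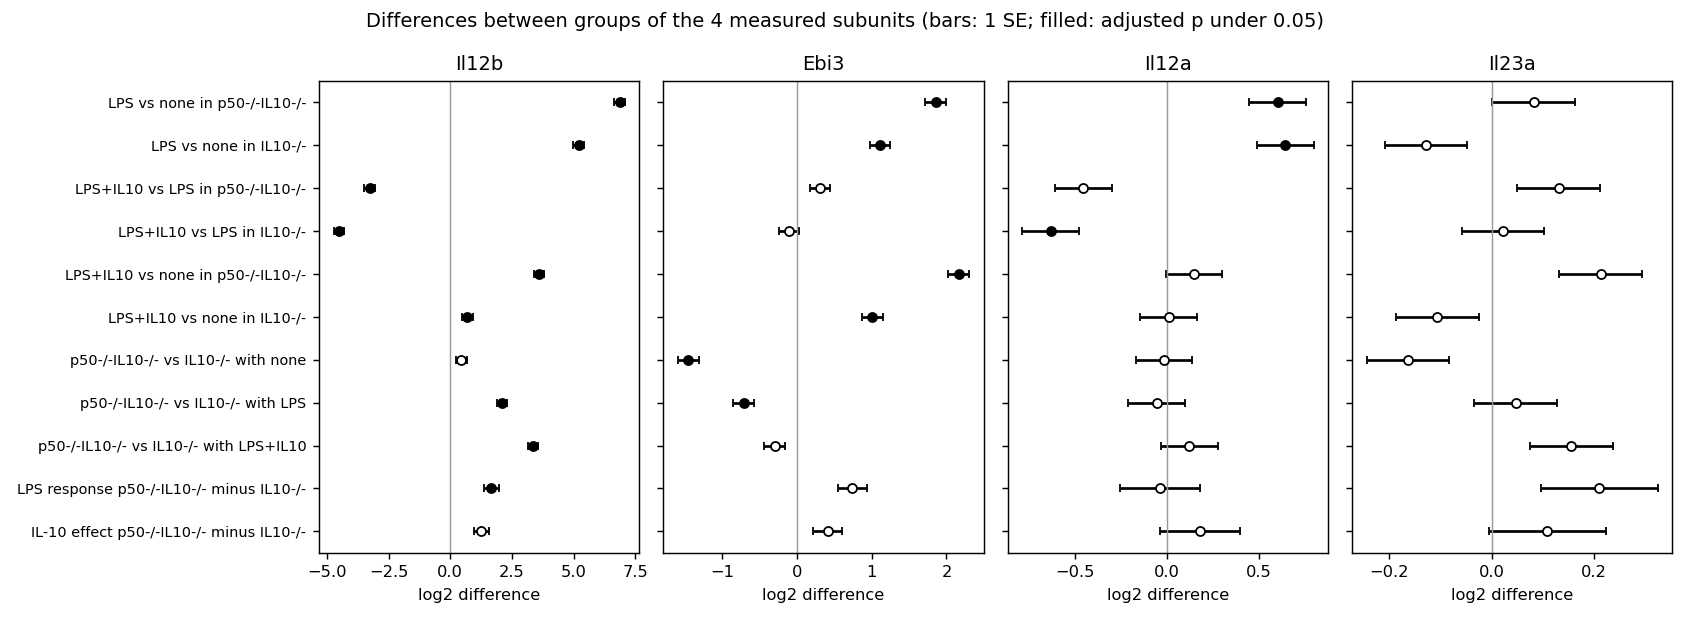
Differences of the 4 measured subunits in the 11 comparisons, in log2 units, on an axis of its own for each gene. Points are fitted differences, bars 1 SE, and filled points have an adjusted p under 0.05. Il12b runs from -4.52 to 6.87, whereas no point of Il23a is filled.

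Counted over the family, LPS called 3 of the 4 measured subunits higher in p50-/-IL10-/- cells, where 32.4% of the 12393 genes were called in either direction, and 3 of 4 in IL10-/- cells, where 24.8% were. LPS with IL-10 against LPS alone called 1 subunit lower in p50-/-IL10-/- cells (6.57% of all genes called) and 2 lower in IL10-/- cells (6.17%). LPS with IL-10 against no stimulus called 2 higher in p50-/-IL10-/- cells (37.9%) and 2 higher in IL10-/- cells (19.5%). Between the genotypes 1 subunit was lower without stimulus (2.57%), 1 was higher and 1 lower with LPS (12.4%), and 1 was higher with LPS plus IL-10 (18.0%). The LPS response differed between the genotypes for 1 subunit (1.19%). The IL-10 effect differed in limma for 0 subunits on their main probe sets (0.137%), with 1 at an unadjusted p under 0.05. With 4 members, shares of this kind are coarse and say little beyond the values above.

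Of the 5 receptor chains for these cytokines 4 were measured, and 2 of them were called in any comparison. Of all genes, LPS called 32.4% in p50-/-IL10-/- cells and 24.8% in IL10-/- cells. LPS plus IL-10 over no stimulus called 37.9% and 19.5%, in the same order. Between the genotypes 12.4% of all genes were called with LPS and 18.0% with LPS plus IL-10. Il27ra, the specific chain of the IL-27 receptor, rose with LPS by 0.27 ± 0.08 log2 in p50-/-IL10-/- cells (adjusted p = 0.0238) and by 0.32 ± 0.08 in IL10-/- cells (adjusted p = 0.0133). Il6st, which codes for gp130, the signalling chain that the IL-27 and IL-6 receptors share, fell by 0.85 ± 0.10 in p50-/-IL10-/- cells (adjusted p = 8.22e-05) and by 0.33 ± 0.10 in IL10-/- cells (adjusted p = 0.0356). Against no stimulus, LPS plus IL-10 gave 0.35 for Il27ra and -0.77 for Il6st in p50-/-IL10-/- cells, both called, and 0 of the 4 chains were called in IL10-/- cells by limma (0.24 for Il27ra and -0.26 for Il6st). Il6st was lower in p50-/-IL10-/- cells by 0.40 ± 0.10 with LPS (adjusted p = 0.0260) and by 0.38 ± 0.10 with LPS plus IL-10 (adjusted p = 0.0246). Il12rb1 and Il12rb2, the chains of the IL-12 receptor, had group means of 5.46 to 5.64 and 5.52 to 5.84 log2 and were not called in any of the 11 comparisons. The median LPS difference of the 4 chains was 0.15 in p50-/-IL10-/- cells and 0.07 in IL10-/- cells, against -0.01 over all genes in both.

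Among the kinases and STAT factors behind these receptors 5 of 6 were measured. With LPS 3 rose and 0 fell in p50-/-IL10-/- cells (list median 0.98 against -0.01 over all genes, of which 32.4% were called), and 2 rose and 0 fell in IL10-/- cells (0.09 against -0.01, with 24.8% called). With LPS plus IL-10 over no stimulus, 4 rose in p50-/-IL10-/- cells (list median 0.86 against 0.05 over all genes, of which 37.9% were called) and 3 in IL10-/- cells (0.54 against 0.00, with 19.5% called). Jak2 rose by 1.99 and Tyk2 by 1.17 in p50-/-IL10-/- cells, against 2.00 and 0.68 in IL10-/- cells. Stat4, through which the IL-12 receptor signals, rose by 0.98 ± 0.15 in p50-/-IL10-/- cells (adjusted p = 0.000565). Its mean was 6.08 log2 in p50-/-IL10-/- cells with LPS and 5.10 to 5.49 in the other groups. Those groups were dim, so the sizes of all Stat4 differences given here are uncertain. With IL-10 added to LPS, Stat3, the factor that carries the IL-10 signal, rose by 0.96 ± 0.10 in p50-/-IL10-/- cells and by 1.08 ± 0.10 in IL10-/- cells. In that comparison 1 of 5 rose and Stat4 fell by 0.60 in p50-/-IL10-/- cells, where 6.57% of all genes were called. In IL10-/- cells, where 6.17% were called, 2 of 5 rose, Jak1 by 0.52 among them, and Tyk2 fell by 0.72. The p50-/-IL10-/- differences, 0.35 for Jak1 (adjusted p = 0.05004) and -0.31 for Tyk2 (adjusted p = 0.113), had the same directions and were not called. The IL-10 effect differed between the genotypes for 0 of the 5, where 0.137% of all genes were called. Between the genotypes Stat4 (0.69) and Tyk2 (0.49) were higher in p50-/-IL10-/- cells with LPS. With LPS plus IL-10 Tyk2 was higher there by 0.90 and Jak1 lower by 0.41, and without stimulus 0 of 5 were called. Of all genes, 12.4% were called between the genotypes with LPS, 18.0% with LPS plus IL-10 and 2.57% without stimulus. Of 5 genes listed for related cytokines and chains, 4 were measured. Clcf1 rose with LPS by 0.47 in p50-/-IL10-/- cells and Lif was lower in p50-/-IL10-/- cells with LPS by 0.31, and no other call was made among them.

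Factors known to act on the promoters of the family were measured for 21 of 22 genes. With LPS 11 rose and 3 fell in p50-/-IL10-/- cells (list median 0.44 against -0.01 over all genes, of which 32.4% were called), and 10 rose and 3 fell in IL10-/- cells (0.41 against -0.01, with 24.8% called). With LPS plus IL-10 over no stimulus, 13 rose and 4 fell in p50-/-IL10-/- cells (list median 0.85 against 0.05 over all genes, of which 37.9% were called), and 12 rose and 0 fell in IL10-/- cells (0.53 against 0.00, with 19.5% called). Irf1, an interferon regulatory factor, rose by 2.51 in p50-/-IL10-/- cells and by 2.19 in IL10-/- cells, and Nfkbiz, a nuclear cofactor of p50, rose by 2.50 in p50-/-IL10-/- cells and by 2.57 in IL10-/- cells. Rel, the NF-kB subunit c-Rel on which Il12b induction is known to depend, rose by 2.11 ± 0.17 in p50-/-IL10-/- cells and by 1.73 ± 0.17 in IL10-/- cells. Fos, part of AP-1, fell with LPS by 3.00 in p50-/-IL10-/- cells and by 1.13 in IL10-/- cells. Nfkb2, which codes for the NF-kB subunit p52, rose by 1.53 in p50-/-IL10-/- cells and by 1.42 in IL10-/- cells.

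IL-10 added to LPS raised 5 and lowered 1 of the 21 factors in p50-/-IL10-/- cells (list median 0.11 against 0.05 over all genes, of which 6.57% were called), and raised 4 and lowered 5 in IL10-/- cells (-0.06 against 0.01, with 6.17% called). Rel fell in both, by 1.26 ± 0.17 in p50-/-IL10-/- cells and by 1.19 ± 0.17 in IL10-/- cells. Bcl3, a partner of p50 homodimers, rose by 1.88 in p50-/-IL10-/- cells and by 1.29 in IL10-/- cells. Batf rose by 1.44 in p50-/-IL10-/- cells and by 1.16 in IL10-/- cells. Fos rose by 1.10 ± 0.23 in p50-/-IL10-/- cells, and its difference in IL10-/- cells, 0.60 ± 0.23, was not called (adjusted p = 0.194). Irf1 fell by 1.32 ± 0.07 in IL10-/- cells (adjusted p = 8.12e-06), and in p50-/-IL10-/- cells its difference was -0.27 ± 0.07 (adjusted p = 0.0578). Its IL-10 effect differed between the genotypes by 1.06 ± 0.10 (adjusted p = 0.00295). Irf1 was the only one of the 21 factors called there, where 0.137% of all genes were called.

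Irf1 read 10.52 and 10.42 log2 in unstimulated p50-/-IL10-/- cells, 12.96 and 12.995 with LPS, and 12.69 and 12.73 with LPS plus IL-10. The IL10-/- arrays read 10.40 and 10.31 without stimulus, 12.55 and 12.53 with LPS, and 11.18 and 11.25 with LPS plus IL-10. As with Il12b, the p50-/-IL10-/- arrays with LPS plus IL-10 stood above the IL10-/- ones, here by 1.49 ± 0.07 (adjusted p = 1.73e-06). In all, 6 of the 21 factors were higher and 3 lower in p50-/-IL10-/- cells with LPS plus IL-10 (list median 0.17 against 0.04 over all genes, of which 18.0% were called), with differences of -2.43 for Fos, -0.90 for Batf and 0.74 for Junb.

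With LPS alone 5 factors were higher and 4 lower in p50-/-IL10-/- cells (list median -0.07 against -0.02 over all genes, of which 12.4% were called). Fos was lower by 2.92, Nfil3 higher by 1.38, Batf lower by 1.18 and Irf8 higher by 0.76. Nfil3, a known repressor of Il12b in macrophages, read 7.35 and 6.96 log2 without stimulus, 8.50 and 8.80 with LPS, and 8.87 and 8.94 with LPS plus IL-10 in p50-/-IL10-/- cells. Its IL10-/- readings were 7.55 and 7.76 without stimulus, 7.28 and 7.27 with LPS, and 8.10 and 8.32 with LPS plus IL-10. Its LPS response was larger in p50-/-IL10-/- cells by 1.88 ± 0.20 (adjusted p = 0.00246). Of the 21 factors 1 was called higher and 2 lower in this LPS response difference, where 1.19% of all genes were called, and the 2 lower ones were Fos (-1.87) and Batf (-0.91). Without stimulus, where 2.57% of all genes were called, 2 of the 21 were higher, Atf3 by 0.60 and Jun by 0.58, and 2 lower, Fos by 1.05 and Nfkb2 by 0.63.

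**Figure D4:**
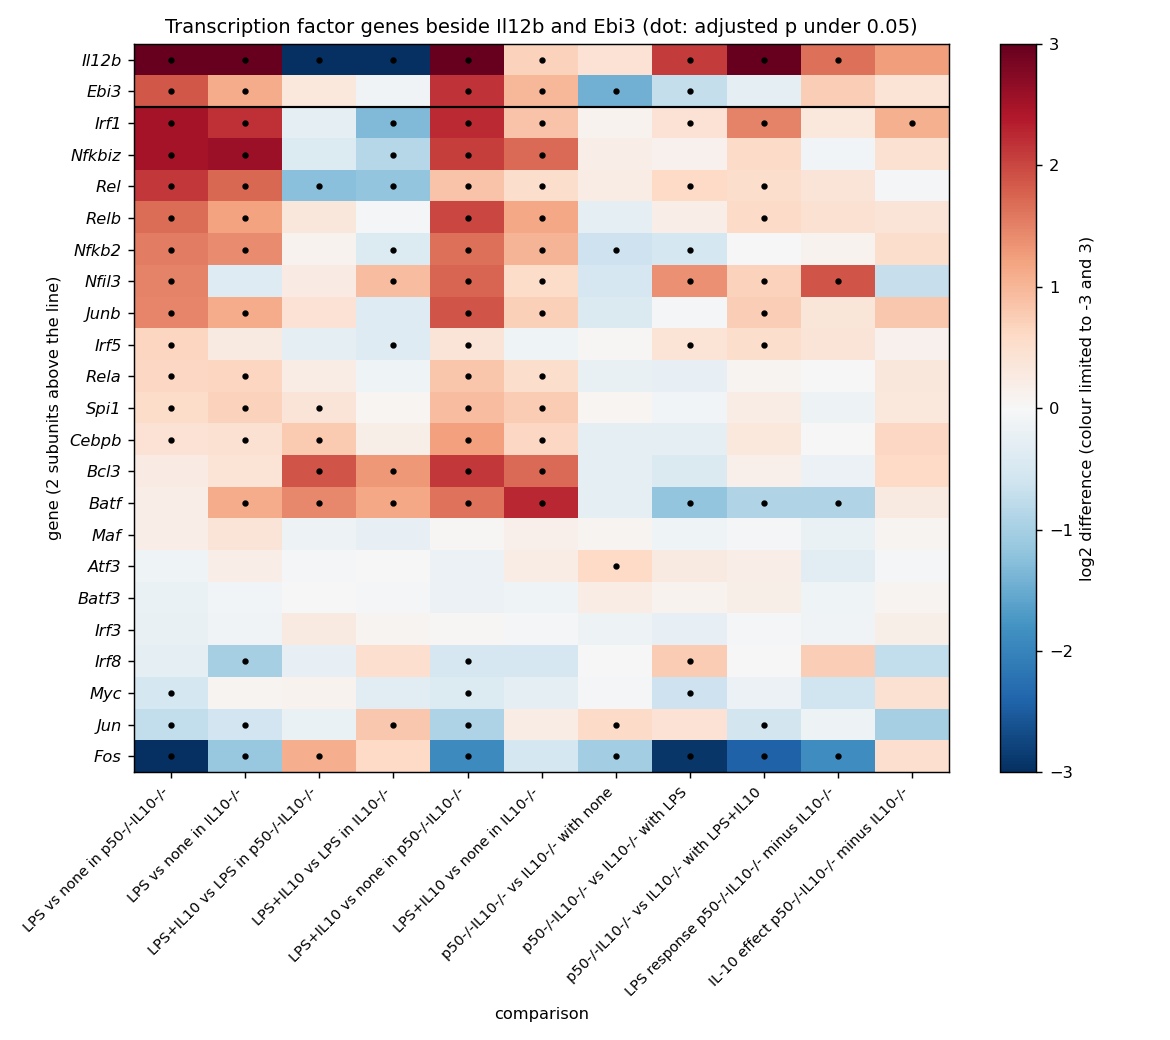
Log2 differences of the 21 measured promoter factors beside Il12b and Ebi3 in the 11 comparisons, as colour limited to -3 and 3. A dot marks an adjusted p under 0.05. Irf1 holds the only dot among the factors in the last column, with a difference of 1.06.

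Genes with the pattern most like each member were taken from those whose 6 group means spanned at least 1 log2, by Pearson's correlation over the 12 arrays. This is a description, since the arrays share the same 6 groups. For Il12b these were Sh3bgrl2 (0.985), Arhgef3 (0.984), the cytokine gene Il6 (0.983), Ppp2r5a (0.978) and Ppp1r15a (0.977), and 170 of 1557 genes exceeded 0.9. For Ebi3 they were Rrad (0.961), Sdc4 (0.957), Nfkb2 (0.944), Birc3 (0.928) and Idi1 (0.919), with 11 genes over 0.9. Il12a came closest to Crlf3 (0.933), St3gal5 (0.904), Vcam1 (0.903), Plaur (0.896) and Rel (0.892). Il23a had no gene above 0.580, the value of Saa1. Among the members, Il12b and Il12a correlated at 0.821, Il12b and Ebi3 at 0.445, Il12a and Ebi3 at 0.428, and Il23a at -0.21 to 0.26 with the others.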

How the data were processed

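The authors deposited 1 table of log2 values for 22690 probe sets on 12 arrays, made with RMA per the submitters' processing notes, which also name limma. Versions, RMA options and the genome build of the probe annotation are not given in the sources used here. RMA gives arrays a common distribution, so a change in total RNA is not visible, and it compresses changes of dim genes. After removal of 64 control probe sets, 20380 carried 1 gene symbol, 691 several and 1555 none, by the platform annotation. Of these, 20351 were found in the mouse gene table by gene ID, with 0 changes of symbol. Where a gene had several probe sets (4956 of 12393 genes), the one brightest on average stood for it.

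All 12 arrays were fitted with limma 3.58.1 (R 4.3.3), with 1 mean per group, 6 residual and 4.47 prior degrees of freedom, two-sided, in 11 comparisons. P-values were adjusted over all genes (Benjamini-Hochberg), and a call is an adjusted p under 0.05. With 2 arrays in each group, the smallest p of an exact permutation test is 0.333. Whether the arrays of 2 groups overlap is therefore given as a description and is no test. The fit was tested on simulated data. Folds are the fitted differences taken off the log2 scale. The number of arrays limits the precision, and the median SE of a difference was 0.10 log2. Alternatives were another scaling, filter, variance model, threshold, probe set, set of groups in the fit, the replicate block, and each array left out. All members were named, with every receptor chain and, of the other lists, at most 4 called genes of the largest change per comparison. Members and lists were chosen with earlier results of these data known. Transcripts of the deleted NF-kB gene were not analysed here, and the genotypes rest on the labels.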

Additional observations from a re-analysis of the deposited data

Results flagged for a closer look

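The Il12b response to LPS differed between the genotypes. It was larger in p50-/-IL10-/- cells by 1.66 ± 0.30 log2 (SE, n = 2 arrays per group, adjusted p = 0.0323 in limma), by the test of the difference itself, and it was higher on both Il12b probe sets. The unstimulated levels were dim, and on the main probe set those of p50-/-IL10-/- cells lay apart, at 4.81 and 5.59 log2, so the size is uncertain. Leaving out 1 of 9 of the 12 arrays ended the call, with values of 1.26 to 2.05 over all 12.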

How the results depend on the processing

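No member changed direction in a called comparison under the alternatives run. Of the counts of subunits called, LPS with IL-10 against LPS alone in IL10-/- cells gave 1 in place of 2 with dim genes removed (Il12a was then not tested, 10159 of 12393 genes were kept), with only the groups compared in the fit (Il12a adjusted p = 0.154) and at an adjusted p under 0.01. LPS with IL-10 against no stimulus in IL10-/- cells gave 1 in place of 2 with the replicate block (Il12b 0.69, adjusted p = 0.0528), with a variance trend and robust fit (Il12b adjusted p = 0.0554) and at 0.01. The LPS response difference gave 0 in place of 1 with only the groups compared (Il12b adjusted p = 0.0892) and at 0.01. The IL-10 effect difference gave 1 in place of 0 with the other Il12b probe set and with the mean of probe sets. With 1 array left out, counts ran from 0 to 1 for the LPS response difference, and from 1 to 2 for LPS with IL-10 in IL10-/- cells, against LPS or no stimulus, and for the genotype difference with LPS. The cause was not tested. The LPS counts fell to 2, against 3, at 0.01 and with dim genes removed in both genotypes, and ran from 2 to 3 with 1 array left out, Il12a being the one lost. Il12a with LPS in IL10-/- cells also lost its call with only the groups compared (adjusted p = 0.0503).

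No label pairs arrays by number, and deviations of same-numbered arrays correlated at -0.49 to 0.60 over 15 group pairs, 10 of them over 0.1. The lowest and the highest of these values both came from group pairs within a genotype. The main fit holds no pairing, and whether same-numbered arrays share a culture or animal was not tested. If arrays under different stimuli share a culture, the 6 groups are not independent, and the p-values of the main fit do not account for it. Itgax in IL10-/- cells read 7.49 and 8.40 log2 without stimulus, 7.54 and 8.40 with LPS, and 7.57 and 8.11 with LPS plus IL-10. In p50-/-IL10-/- cells it read 10.65 and 10.31, 10.92 and 10.45, and 10.49 and 10.96, in the same order. A block by number misses arrays that share a culture under different numbers. The replicate block changed no other member's call. Over all genes the replicate block within genotypes raised calls for the IL-10 effect difference to 74, against 17 without it, and for the unstimulated genotype difference to 576, against 318. Dim levels limit the size of the Il12b folds and all Il12a values, and levels just above dim limit all Il23a values.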
